A study of Mus musculus with 125 samples.

Results

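Chromatin accessibility of lung endothelial nuclei was compared with that of nuclei from the whole mouse lung, separately in adults and in pups at postnatal day 6 (P6). Accessibility was measured by ATAC-seq, in which a transposase cuts open chromatin and tags it for sequencing. The members were the 9 lung ATAC-seq peak lists of these groups, of 66 ATAC-seq samples in the series. They comprised 2 endothelial and 2 input lists from adults, and 2 endothelial and 3 input lists from pups. "Input" is the name the labels give to the whole-tissue nuclei that were not selected for endothelial origin. Mice in both groups had received tamoxifen at 0.015 mg per kg body weight, and the vessels of their organs carried a GFP reporter. Adults were 2 months old and were injected intraperitoneally 7 days before collection. Pups were injected subcutaneously on postnatal days 1 and 3. The labels call the pups P6, whereas the protocol gives collection on postnatal day 7. The recombinase driver behind the reporter, the mouse strain, the sex of the animals and the sorting gate are not given in the sources used here. Nothing in the labels says whether replicates were separate animals, so any p-value measures the spread between libraries, which may be technical.

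Lung endothelium lines arteries, veins, lymphatics and a dense alveolar capillary bed. The capillary bed holds general capillary cells, which maintain and repair it, and aerocytes, large thin cells specialised for gas exchange. Endothelial identity depends on transcription factors of the ETS, SOX, GATA and forkhead families acting together at distal enhancers and at start sites, and on signalling through the VEGF, angiopoietin, Notch and BMP receptors. Whole-lung nuclei add alveolar and airway epithelium, fibroblasts, smooth muscle, pericytes and immune cells, and they also contain the endothelium itself. The comparison therefore sets an enriched cell type against a mixture that includes it.

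To put libraries on one footing, the 19464 peaks with the highest −log10 q-value were kept from each list, a number equal to the length of the shortest list. These are called top peaks. Overlapping top peaks of the libraries of an age were merged into regions. A region was called endothelial-only when at least 2 endothelial libraries and no input library had a top peak there, and input-only in the reverse case. Endothelial-only thus means absent from the strongest 19464 peaks of the other side, not closed in the other cells. In bulk nuclei, fewer cells of a type and less accessibility per cell cannot be told apart. Fold enrichment and rank are the values of each peak within its own list, as the authors deposited them, and are used here only to describe and order peaks.

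The 9 lists held 19464 to 112753 peaks, from 23642723 to 45389810 tags kept after duplicate removal. The list of adult endothelial replicate 2 was the shortest and was used whole, down to a −log10 q-value of 1.02, whereas 17.3% to 62.8% of the other lists was used. Adult input replicate 1 carried a different suffix on its aligned file than the other 8 lung libraries, and what differed in its processing is not given in the sources used here. Adult region counts and start-site shares are given with and without it, and gene list counts without it where they moved by more than 1.5 times. Promoter and motif counts and the shares of all genes were not recomputed without it. Gene list counts without it can therefore not be read against the shares of all genes, which belong to the main rule. The Jaccard index, the share of merged regions that a pair of libraries have in common, was 0.653 between the 2 adult endothelial libraries and 0.576 between the 2 adult input libraries. Across sides it was 0.431 to 0.499. At P6 it was 0.798 between the endothelial libraries, 0.583 to 0.754 among the input libraries and 0.422 to 0.448 across sides. Libraries of the same side were thus more alike than libraries of different sides at both ages.

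Promoter sequences are shown for the genes whose start sites lay at called regions, because these are the places where the difference between the sides touches a gene directly. Of 93 genes on the endothelial lists, 63 had a listed promoter window, and in 14 it was overlapped by an endothelial-only region, 7 of them at both ages. Of 160 genes on the lists of other cell types, 108 had a listed window, and in 14 it was overlapped by an input-only region, 2 of them at both ages. Of 21263 listed windows of all genes, endothelial-only regions overlapped 222 in adults and 123 at P6, and input-only regions 221 and 757. Genes without a listed window, such as Ecscr, Cdh1 and Krt19, are not in these counts, and the end of the gene stands for their start site elsewhere. The window ran from 250 bases before the start to 50 after it, and the 250 bases before the start are printed 5′ to 3′ on the gene's strand. Sequences and start sites are from RefSeq on GRCm38.p6. Capitals mark matches on either strand to 7 short motifs, each a core that the named factor family recognises. The ETS family was searched as AGGAAG and the SOX family as ACAATG. The GATA family was searched as GATAAG and the forkhead family as TGTTTAC. Factors of the TEAD family were searched as GGAATG, those of AP-1 as TGANTCA and those of C/EBP as TTGCNNAA. The first 4 belong to genes of the endothelial lists and had endothelial-only regions at both ages. Lyl1, which encodes a basic helix-loop-helix factor of blood and endothelium, starts after chr8:84701207-84701456 on the plus strand. Hpgd, which encodes a prostaglandin-degrading enzyme that marks aerocytes, starts after chr8:56294302-56294551 on the plus strand. Stab1, a scavenger receptor gene, has chr14:31168642-31168891 before its start on the minus strand. Flt1, the gene of VEGF receptor 1, has chr5:147726012-147726261 before its start on the minus strand.
Lyl1: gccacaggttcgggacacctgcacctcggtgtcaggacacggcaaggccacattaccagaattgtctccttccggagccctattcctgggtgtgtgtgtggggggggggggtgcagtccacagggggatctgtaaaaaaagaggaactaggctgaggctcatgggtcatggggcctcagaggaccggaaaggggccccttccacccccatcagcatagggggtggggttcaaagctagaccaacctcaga
Hpgd: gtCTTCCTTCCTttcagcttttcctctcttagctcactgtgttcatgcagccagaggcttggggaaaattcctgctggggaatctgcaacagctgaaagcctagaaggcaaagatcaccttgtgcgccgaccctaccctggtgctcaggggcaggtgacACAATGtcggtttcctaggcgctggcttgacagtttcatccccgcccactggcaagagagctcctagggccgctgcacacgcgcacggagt
Stab1: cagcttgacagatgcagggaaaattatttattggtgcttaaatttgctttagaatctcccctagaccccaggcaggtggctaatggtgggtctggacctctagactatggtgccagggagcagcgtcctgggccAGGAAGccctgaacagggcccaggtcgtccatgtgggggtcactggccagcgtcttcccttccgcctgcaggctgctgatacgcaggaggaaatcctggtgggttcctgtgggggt
Flt1: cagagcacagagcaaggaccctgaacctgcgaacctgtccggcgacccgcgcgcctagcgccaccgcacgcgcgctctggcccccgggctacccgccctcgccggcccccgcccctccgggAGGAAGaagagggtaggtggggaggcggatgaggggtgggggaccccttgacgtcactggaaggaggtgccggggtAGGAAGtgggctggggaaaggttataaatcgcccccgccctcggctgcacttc

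The next 4 belong to genes of epithelial or contractile cells and had input-only regions. The promoters of Cldn3, a tight-junction gene of epithelia (chr5:134985964-134986213, plus strand), and of Cldn18, a tight-junction gene of alveolar type 1 cells (chr9:99710064-99710313, minus strand), were called at both ages. That of Acta2, the smooth muscle actin gene (chr19:34255374-34255623, minus strand), was called at P6, and that of Elf3, an epithelial ETS factor gene (chr1:135258473-135258722, minus strand), in adults.
Cldn3: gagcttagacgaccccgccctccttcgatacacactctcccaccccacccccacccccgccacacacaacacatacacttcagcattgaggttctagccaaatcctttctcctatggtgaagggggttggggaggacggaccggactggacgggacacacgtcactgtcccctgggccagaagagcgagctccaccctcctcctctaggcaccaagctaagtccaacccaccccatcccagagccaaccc
Cldn18: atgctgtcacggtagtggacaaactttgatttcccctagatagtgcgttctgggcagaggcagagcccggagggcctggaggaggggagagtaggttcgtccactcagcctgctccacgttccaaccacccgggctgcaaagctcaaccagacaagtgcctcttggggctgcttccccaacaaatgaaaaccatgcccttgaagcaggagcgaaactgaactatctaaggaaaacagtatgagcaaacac
Acta2: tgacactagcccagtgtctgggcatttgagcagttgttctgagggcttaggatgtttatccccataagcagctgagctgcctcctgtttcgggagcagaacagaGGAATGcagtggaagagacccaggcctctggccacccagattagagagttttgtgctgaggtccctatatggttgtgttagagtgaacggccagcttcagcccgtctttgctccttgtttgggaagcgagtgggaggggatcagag
Elf3: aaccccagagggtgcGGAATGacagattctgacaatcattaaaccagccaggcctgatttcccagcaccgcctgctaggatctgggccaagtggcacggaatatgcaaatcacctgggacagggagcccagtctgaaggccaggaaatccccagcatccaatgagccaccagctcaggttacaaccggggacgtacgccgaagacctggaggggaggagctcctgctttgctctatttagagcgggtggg

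In the printed bases, the ETS letters occurred at 2 places in Hpgd, 2 in Flt1 and 1 in Stab1, the SOX letters once in Hpgd, and the TEAD letters once each in Acta2 and Elf3. None of the 7 motifs occurred in the printed bases of Lyl1, Cldn3 or Cldn18, which says only that these letters are not in these windows. Among 21263 promoter windows of all listed genes, 28.5% held the ETS letters. The share was 34.2% of the 222 windows overlapped by adult endothelial-only regions and 54.5% of the 123 overlapped by P6 endothelial-only regions. It was 29.9% of 221 windows under adult input-only regions and 25.0% of 757 under P6 input-only regions. The SOX letters were in 9.35% of all windows, in 7.21% and 13.0% of the windows under adult and P6 endothelial-only regions, and in 8.14% and 4.62% under input-only regions. The GATA letters were in 6.25% of all windows, in 8.56% and 8.94% under endothelial-only regions, and in 3.62% and 4.10% under input-only regions. The forkhead letters were in 2.62% of all windows, in 5.41% and 0.813% under endothelial-only regions and in 1.36% and 2.11% under input-only regions. For TEAD the shares were 11.7% of all windows and 12.2% to 14.5% under the 4 sets. The AP-1 and C/EBP letters were in 6.13% and 9.09% of all windows, and in 4.05% to 7.32% and 7.32% to 9.50% under the 4 sets. These shares are descriptions, and a match is not evidence of a bound site.

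Endothelial-only regions lay mostly away from start sites, while regions shared by the libraries of both sides lay at them. In adults, 33123 merged regions were found, of which 20668 had a top peak in at least 2 of the 4 libraries. Of these, 2965 were endothelial-only (14.3%) and 2903 were input-only (14.0%). At P6, 25301 of 33469 merged regions had a top peak in at least 2 of the 5 libraries, and 4597 of them were endothelial-only (18.2%) and 6424 input-only (25.4%). All 3 pup input libraries had 2935 of those input-only regions. Regions with a top peak in every lung library of the age numbered 10196 in adults and 9724 at P6. Just outside the rule in adults, 5549 regions had a top peak in a single endothelial library and no input library, and 2070 had one in both endothelial libraries and 1 input library. On the input side, 6906 adult regions had a top peak in 1 input library and no endothelial library. At P6 the corresponding counts were 2725, 1402 and 5443. Without adult input replicate 1, the adult counts were 3820 endothelial-only and 6172 input-only regions, the remaining input library then counting alone. The adult endothelial-only count was 6269 without endothelial replicate 1 and 5252 without endothelial replicate 2. The adult input-only count was 6568 without input replicate 2. In each of these cases the remaining library of the side counted alone. The P6 input-only count was 3385 without input replicate 1 and 3483 without input replicate 2.

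A start site lay within 1 kb of 11.9% of adult endothelial-only regions (95% Wilson interval 10.8 to 13.1) and of 10.5% of adult input-only regions (9.41 to 11.6). At P6 the shares were 5.18% (4.57 to 5.86) and 14.3% (13.4 to 15.2). Regions found in every library had a start site within 1 kb in 74.2% of cases in adults and 68.9% at P6. The adult intervals overlapped and the P6 intervals did not. With 10000 top peaks the adult shares were 20.5% endothelial-only and 29.6% input-only, and with peaks ranked by fold enrichment 18.9% and 8.54%, so the adult order turned with fewer top peaks and not with the other ranking. Without adult input replicate 1 the adult shares were 16.1% and 10.4%. P6 shares were 5.11% and 35.7%, and 6.88% and 9.04%, in the same settings. The intervals cover counting error over regions only. The median distance to a start site was 27.4 kb for adult endothelial-only and 26.9 kb for adult input-only regions, and 33.8 and 35.1 kb at P6. Of the adult endothelial-only regions 59.5% lay inside a protein-coding gene and 14.8% lay more than 50 kb from any. The called regions were also narrower, with medians of 473 and 530 bp in adults against 861 bp for regions in every library, and 606 and 647 bp against 999 bp at P6. A region is the union of the overlapping top peaks of its libraries, so regions in more libraries are wider partly by construction.

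**Figure D1:**
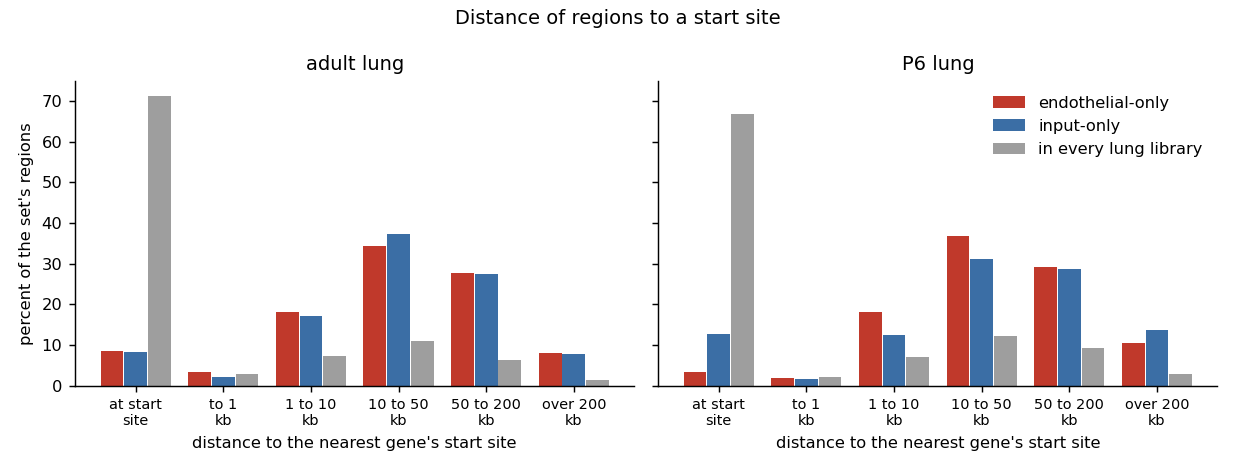
Share of regions (percent, vertical axis) by distance to the nearest listed start site (horizontal axis), for endothelial-only, input-only and every-library regions in adult (left) and P6 (right) lung. Of the every-library regions, 71.4% in adults and 66.8% at P6 overlapped a start site, against 8.50% and 3.31% of the endothelial-only regions.

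Peaks near endothelial genes were more numerous in the endothelial libraries, and at both ages peaks near fibroblast, smooth muscle and pericyte, and alveolar type 2 genes were more numerous in the input libraries. Each top peak was assigned to its nearest protein-coding gene within 50 kb. Genes of the general endothelial list, 20 adhesion, junction and receptor genes such as Cdh5, Pecam1 and Kdr, had 68 and 86 top peaks in the adult endothelial libraries and 31 and 34 in the adult input libraries. At P6 they had 75 and 78 against 29 to 35. Ranges of the endothelial libraries lay above those of the input libraries for all 7 endothelial lists at both ages. Of the 12 lists of other cell types, 5 were higher in the input libraries in adults and 7 overlapped. At P6, 6 were higher in the input libraries, 4 overlapped, and 2 were higher in the endothelial libraries, which were airway epithelial (6 against 4 to 5 peaks) and mesothelial (3 against 2). Adult general epithelial genes had 8 to 10 top peaks in endothelial libraries and 24 to 25 in input libraries, while at P6 the ranges of 12 to 13 and 13 to 18 overlapped. Alveolar type 1 genes overlapped in adults (25 against 22 to 32) and were higher in input at P6 (19 to 21 against 24 to 28), and airway genes overlapped in adults (7 against 5 to 7). Signal near other cells' genes was therefore present on the endothelial side. Its part in the results was not tested. Fibroblast genes had 3 to 6 against 9 to 14 peaks in adults, and smooth muscle and pericyte genes 2 to 3 against 7. Macrophage and lymphocyte lists overlapped between the sides at both ages. Neutrophil genes had no top peak in any endothelial library and at most 1 in an input library. Of defining single genes, Sftpc, the surfactant protein gene of alveolar type 2 cells, and Hba-a1, a haemoglobin gene, had no top peak in any of the 9 libraries. Nkx2-1, the lung epithelial homeobox gene, had 1 top peak in adult input replicate 1 and none in the other 8.

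**Figure D2:**
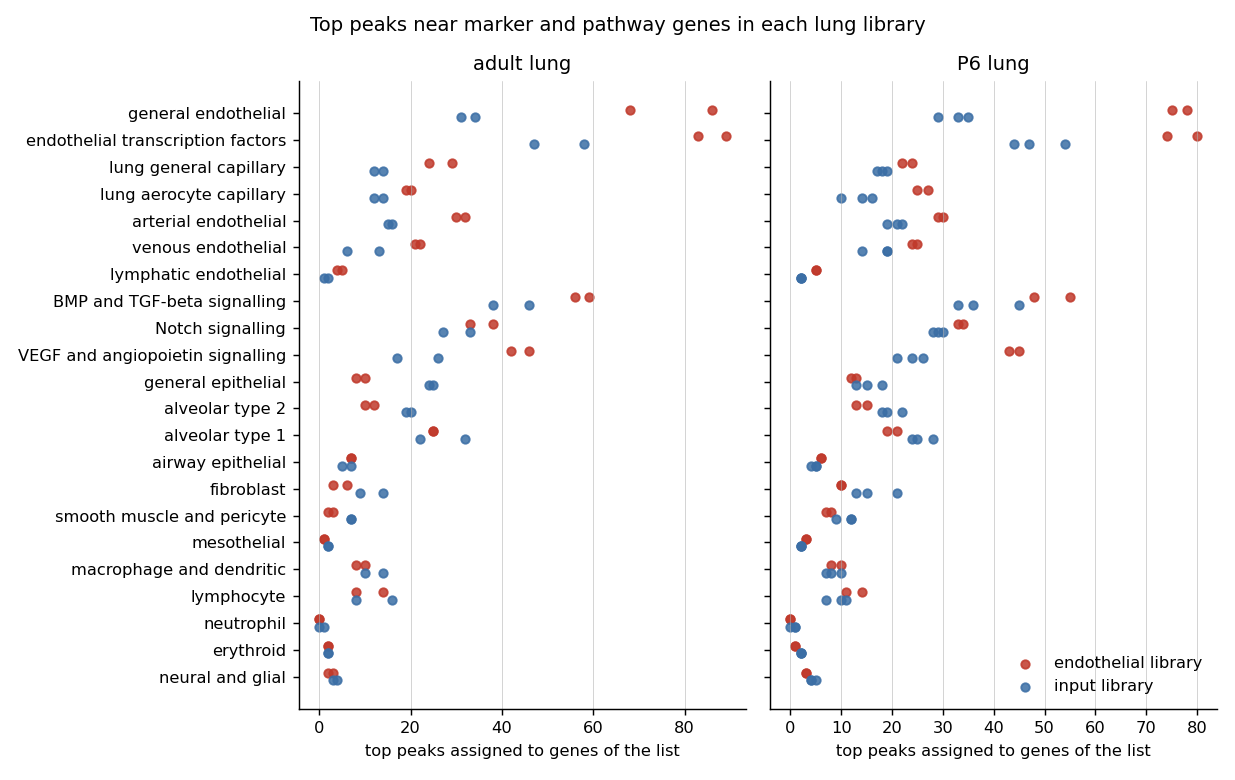
Top peaks assigned to the genes of each marker or pathway list (horizontal axis, number of peaks), with a point for each adult (left) and P6 (right) lung library. The endothelial libraries lie to the right of the input libraries for all 7 endothelial lists at both ages, for example at 75 and 78 against 29 to 35 for general endothelial genes at P6.

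Among general endothelial genes, 14 of 20 (70.0%) had an adult endothelial-only region and 2 had an adult input-only region, while 8.22% and 9.17% of all 21887 protein-coding genes had them. Without adult input replicate 1 the list counts were 16 and 3, and the share of all genes was not computed in that setting. At P6 the counts were 15 and 2, against 11.8% and 16.9% of all genes. The lists were chosen with earlier results of these data known and the regions choose the genes, so these shares carry no test. In 9 of the 20 genes the same region was endothelial-only at both ages. Flt1 had 10 and 12 top peaks in the adult endothelial libraries and 2 and 3 in the adult input libraries. At P6 it had 9 and 9 against 4, 5 and 4. The libraries of the 2 sides do not overlap at either age. Each called region adds top peaks to its own side and none to the other. For genes with called regions, here and below, the order of the sides is therefore partly set by the rule. How many of all genes separate in this way was not computed. The Flt1 start-site region, shown above as sequence, ranked 13378 and 5428 in the adult endothelial lists and 10285 and 14413 in the P6 endothelial lists. In the input lists the peak there ranked 28468 and 27369 in adults and 35644 to 50168 at P6, outside the top peaks.

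Kdr, the gene of VEGF receptor 2, had 7 and 8 against 3 and 5 top peaks in adults, and 8 and 7 against 2, 2 and 2 at P6. Cdh5, which encodes VE-cadherin of endothelial junctions, had 4 and 6 against 2 and 2 in adults and 5 and 5 against 3, 4 and 3 at P6. Pecam1, an endothelial adhesion gene, had 6 and 6 against 3 and 2, and 5 and 5 against 1, 1 and 3. For these 3 genes the endothelial libraries lay above the input libraries at both ages, but not every gene of the list was so ordered. Tie1 had 1 and 1 against 2 and 1 top peaks in adults and 1 and 1 against 1, 1 and 1 at P6. Nos3 had 0 and 1 against 1 and 1 in adults, with an input-only region, and 3 and 3 against 0, 0 and 1 at P6. The best-ranked general endothelial region of both ages lay inside Esam, a junctional adhesion gene, at chr9:37530065-37530893 in adults. It ranked 5267 and 4982 in the adult endothelial lists and 5633 and 8134 at P6, with fold enrichments of 4.08 and 2.96, and of 3.72 and 3.42. The input lists held a weaker peak at this place, at ranks 29811 and 31907 in adults and 20217 to 31142 at P6. A region 13.1 kb from the start of Tek, the angiopoietin receptor gene, ranked 12890 and 13429 in adults and 10385 and 11045 at P6. In the input lists the peak there ranked 29374 in adult replicate 2 and 25749 to 73685 at P6, and adult input replicate 1 had none. Regions of both ages also lay inside Icam2, a leukocyte adhesion gene with 1 and 2 top peaks in the adult endothelial libraries, 2 and 2 in the P6 endothelial libraries and none in the 5 input libraries, and 1.64 kb outside Cdh5.

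Transcription factor genes of the endothelium carried endothelial-only regions in 15 of 24 cases in adults and 16 of 24 at P6, and input-only regions in 3 and 5 cases. These shares of 62.5% and 66.7% stood beside 8.22% and 11.8% of all genes, and the input-only shares of 12.5% and 20.8% were near the 9.17% and 16.9% of all genes. Input-only regions fell at 8 of them in adults without adult input replicate 1, a setting in which the share of all genes was not computed. The list had 83 and 89 top peaks in the adult endothelial libraries against 47 and 58, and 74 and 80 against 44 to 54 at P6. In 6 genes a region was endothelial-only at both ages. The Lyl1 region began 0.0280 kb past the start site in adults (chr8:84701485-84701868), just after the printed bases. It was the single top peak assigned to Lyl1 in each of the 4 endothelial libraries. No input library had a top peak at Lyl1. Its ranks were 7999 and 7158 in adults and 8274 and 6475 at P6. Lmo2, the gene of a LIM-domain adaptor of the haematopoietic and endothelial factor complex, likewise had 1 top peak in each endothelial library and none in the 5 input libraries. Erg, an ETS factor gene of endothelium, had 9 and 8 against 4 and 5 top peaks in adults and 8 and 8 against 5, 5 and 3 at P6. Elk3, another ETS factor gene, had 7 and 9 against 2 and 4, and 6 and 6 against 3, 2 and 2. In both genes the endothelial libraries were above the input libraries at each age, an order partly set by the rule that called their regions. The best-ranked Elk3 region of both ages lay 14.7 kb outside the gene. The peak there ranked 42029 in adult input replicate 2 and 22411 to 31506 in the P6 input lists, and adult input replicate 1 had none. Sox17, an arterial SOX factor gene, had 3 and 2 top peaks in the adult endothelial libraries and none in the adult input libraries, and 3 and 3 against 1, 1 and 0 at P6. A region 104887 bp from Sox17 was among the 10 best-ranked endothelial-only regions of adults, too far to be assigned to the gene under the 50 kb limit. Tbx3, a T-box factor gene, had a region 28.1 kb away at both ages, but an endothelial-only region at both ages in 2 of 5 alternative settings.

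Capillary genes were called on both sides. Of 10 general capillary genes, 6 had an adult endothelial-only region and 1 an input-only region, while at P6 the count was 4 (40.0%) on each side, against 8.22% and 9.17% of all genes in adults and 11.8% and 16.9% at P6. The list still had 22 and 24 top peaks in the P6 endothelial libraries and 17 to 19 in the P6 input libraries. Aplnr, the apelin receptor gene of general capillary cells, had 4 and 6 against 1 and 2 top peaks in adults. At P6 it had 7 and 7 against 6, 6 and 3. The gap between the sides was thus 2 peaks or more in adults and 1 or more at P6. Kit, the receptor gene of stem cell factor, had 4 and 3 against 1 and 1 top peaks in adults, and 2 and 2 against 2, 2 and 3 at P6, where the sides overlapped. Cd36, a fatty acid transporter gene, had the single general capillary region called at both ages, inside the gene. Of 12 aerocyte genes, 4 (33.3%) had an endothelial-only and 2 (16.7%) an input-only region in adults, against 7 (58.3%) and 4 (33.3%) at P6. Hpgd had 3 and 4 top peaks in the adult endothelial libraries and none in the adult input libraries, and 2 and 3 against 1, 0 and 1 at P6. Its start-site region, printed above, ranked 8509 and 4434 in adults and 7780 and 10473 at P6. Ednrb, the endothelin receptor gene of aerocytes, had 2 and 2 against 0 and 0 top peaks in adults and 3 and 5 against 1, 2 and 1 at P6. Both genes had more top peaks in each endothelial library than in any input library of the age. Their called regions are among these peaks, so the rule partly sets this order.

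Arterial genes had endothelial-only regions in 6 of 12 cases at each age and input-only regions in 0 cases in adults and 2 (16.7%) at P6. Among all genes 8.22% had an endothelial-only and 9.17% an input-only region in adults, and 11.8% and 16.9% at P6, so the arterial input-only share at P6 was at the level of all genes. Their list had 30 and 32 top peaks against 15 and 16 in adults and 29 and 30 against 19 to 22 at P6. Dll4, a Notch ligand gene of arteries and sprouting tips, had 3 and 4 against 2 and 2 top peaks in adults and 4 and 4 against 1, 1 and 2 at P6. Its region of both ages lay 10.4 kb outside the gene, at chr2:119314799-119315345 in adults. Hey1, a Notch target factor gene, had 4 and 4 against 1 and 1, and 2 and 2 against 1, 1 and 1. Regions inside Jag1, another Notch ligand gene, and inside Sema3g, an arterial semaphorin gene, were called at both ages as well. Gja5, an arterial gap junction gene, had 2 top peaks in each of the 4 adult libraries and 1 and 1 against 3, 2 and 3 at P6. At P6 it thus went against the order of its list. Venous genes had endothelial-only regions in 5 of 10 cases and input-only in 1 (near the level of all genes) in adults, and 3 on each side at P6. Without adult input replicate 1 the adult input-only count was 4, with no share of all genes computed in that setting. Ephb4, the venous ephrin receptor gene, had 4 and 4 against 1 and 1 top peaks in adults and 3 and 3 against 1, 1 and 1 at P6. Lymphatic genes had few peaks, 4 and 5 against 1 to 2 in adults and 5 against 2 at P6. Flt4, the gene of VEGF receptor 3, and Stab1 provided the 2 endothelial-only regions of both ages. Neither gene had a top peak in any of the 5 input libraries. Prox1, the master factor gene of lymphatic identity, had 1 top peak in adult endothelial replicate 1, 1 in each P6 endothelial library and 1 in 2 of the P6 input libraries.

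BMP and TGF-β signalling genes had regions on both sides. Endothelial-only regions fell at 5 of 16 genes in adults and 9 at P6, and input-only regions at 4 and 7. The shares were 31.2% and 56.2% against 8.22% and 11.8% of all genes, and 25.0% and 43.8% against 9.17% and 16.9%. In adults 8 genes had an endothelial-only region without adult input replicate 1, and the share of all genes was not computed in that setting. At P6, Id3, Smad7, Tgfbr2 and Tgfbr3 carried both kinds. Acvrl1, an endothelial BMP receptor gene, had 4 and 4 top peaks against 1 and 1 in adults and 3 and 3 against 1, 1 and 1 at P6. A region of both ages inside the gene, at chr15:101134009-101134722 in adults, ranked 12749 and 13804 in adults and 5481 and 6564 at P6. Another, 2599 bp outside the gene in adults, ranked 9197 and 11339 in adults and 16491 and 11917 at P6. Bmpr2, the type II BMP receptor gene, had 3 and 6 against 2 and 1, and 2 and 2 against 1, 1 and 2, so that the sides overlapped at P6. The inhibitory SMAD genes Smad6 and Smad7 also had endothelial-only regions at both ages, 33.1 kb outside Smad6 and inside Smad7. Input-only regions of both ages lay inside Bmper, a secreted BMP regulator gene, 47.9 kb from the start of Tgfbr2, the type II TGF-β receptor gene, and 20.2 kb from that of Smad5. Tgfbr2 also had an endothelial-only region inside the gene at P6, at ranks 8637 and 5335. Bmper had no top peak in the adult endothelial libraries and 1 in each adult input library.

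Notch pathway genes had 33 and 38 top peaks in the adult endothelial libraries and 27 and 33 in the adult input libraries, which overlap, and 33 and 34 against 28 to 30 at P6. Endothelial-only regions fell at 6 of 14 genes in adults and 8 at P6, and input-only regions at 2 and 7. Shares of 42.9% and 57.1% stood against 8.22% and 11.8% of all genes, and input-only shares of 14.3% and 50.0% against 9.17% and 16.9%, so the adult input-only share was near that of all genes. Notch1, the principal endothelial receptor gene of the pathway, had 7 and 7 against 6 and 4 top peaks in adults and 7 and 6 against 2, 4 and 5 at P6. Notch2, a related receptor gene, had the reverse order, with 1 and 1 against 7 and 5, and 2 and 2 against 4, 5 and 4. A region inside Notch2, 85.0 kb from the start, was input-only at both ages, and so was a region 8.04 kb from the Notch target gene Hes1. Another region inside Notch2 (chr3:98074744-98075287) was endothelial-only at P6, at ranks 9971 and 5853.

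Among VEGF and angiopoietin genes, 7 of 15 had endothelial-only regions in adults and 9 at P6, and 2 and 6 had input-only regions. Of all genes, 8.22% and 11.8% had endothelial-only and 9.17% and 16.9% input-only regions, and the adult input-only share of 13.3% was near that level. Input-only regions fell at 4 genes in adults without adult input replicate 1, where the share of all genes was not computed. The list had 42 and 46 top peaks against 17 and 26 in adults, and 43 and 45 against 21 to 26 at P6. Angpt2, an angiopoietin gene released by endothelium, had 3 and 3 against 0 and 0 top peaks in adults and 3 and 2 against 1, 2 and 0 at P6, with an overlap at P6. Its start-site region was endothelial-only at both ages. Receptor genes (Flt1, Flt4, Tek) made up 3 of the 5 genes with a region of both ages on the endothelial side. Nrp1, the gene of the VEGF co-receptor neuropilin 1, had 4 and 3 against 1 and 3 top peaks in adults and 6 and 5 against 3, 3 and 2 at P6. A region inside it, 88.2 kb from the start, was nonetheless input-only at both ages.

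On the input side, calls fell at epithelial genes at both ages. General epithelial genes had input-only regions in 10 of 20 cases in adults and 7 at P6, and endothelial-only regions in 2 and 5. The input-only shares of 50.0% and 35.0% stood against 9.17% and 16.9% of all genes. Of the endothelial-only ones, the adult 2 of 20 was near the 8.22% of all genes and the P6 share was 25.0% against 11.8%. In 6 genes the same region was input-only at both ages. Cdh1, the E-cadherin gene, had 0 and 0 top peaks in the adult endothelial libraries and 1 and 2 in the adult input libraries. At P6 it had 1 and 2 against 2, 2 and 1, so the numbers of peaks overlapped there. Its start-site region was input-only at both ages, ranked 6790 and 9351 in adults and 11481, 17007 and 13316 at P6, with no peak in the full list of any endothelial library. Elf3 had 0 and 0 against 2 and 3 top peaks in adults, and 0 and 0 against 1, 0 and 2 at P6. Esrp2, an epithelial splicing regulator gene, had 0 and 0 against 3 and 3, and 0 and 0 against 1, 1 and 2. Start-site regions of Cldn3 and of Krt19, an epithelial keratin gene, and a region 26.9 kb from the start of Foxa2, a forkhead factor gene of lung epithelium, were input-only at both ages as well, as were regions 9.62 kb from the start of Elf3 and inside Esrp2. The endothelial-only regions fell at Grhl1 and St14 in adults, and at Cdh1, Ehf, Cldn3, St14 and Foxa2 at P6. Grhl1 had 5 and 5 against 3 and 3 top peaks in adults, and Ehf 3 and 3 against 1, 2 and 1 at P6.

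Alveolar type 2 genes had input-only regions in 4 of 15 cases in adults and 7 at P6, and endothelial-only regions in 2 at each age. Input-only shares were 26.7% and 46.7% against 9.17% and 16.9% of all genes, and the endothelial-only share of 13.3% was near the 8.22% and 11.8% of all genes. The adult input-only count was 7 without adult input replicate 1, and the share of all genes was not computed in that setting. Sftpb, a surfactant protein gene, had 1 and 1 top peaks in the adult endothelial libraries and 4 and 3 in the adult input libraries, and 1 and 1 against 4, 2 and 2 at P6. Abca3, the lipid transporter gene of lamellar bodies, had 1 and 1 against 2 and 4, and 1 and 1 against 4, 2 and 2. Both genes had more top peaks in each input library than in the endothelial libraries, again partly through the regions that the rule called. Alveolar type 1 genes had input-only regions in 6 of 15 cases in adults and 9 at P6, and endothelial-only regions in 5 (33.3%) and 3 (20.0%). Cldn18 had 0 and 0 against 2 and 1 top peaks in adults and 0 and 0 against 2, 2 and 3 at P6. Airway epithelial genes had input-only regions at 1 (7.14%) and endothelial-only regions at 2 (14.3%) of 14 genes at each age, near or under the shares of all genes. The input-only one of both ages lay 1.28 kb from Cyp2f2, a cytochrome gene of club cells.

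Mesenchymal genes had input-only regions at both ages. Fibroblast genes had input-only regions in 3 of 16 cases in adults (18.8%) and 8 at P6 (50.0%), and endothelial-only regions in 2 (12.5%) and 3 (18.8%). Among all genes the input-only shares were also the higher ones, at 9.17% against 8.22% in adults and 16.9% against 11.8% at P6. The endothelial-only shares of fibroblast genes were near those of all genes. Col1a1, a collagen gene, had 0 and 0 top peaks in the adult endothelial libraries and 3 and 1 in the adult input libraries, and 0 and 0 against 1, 2 and 3 at P6. Its region of both ages, 6.98 kb outside the gene at chr11:94928735-94929245 in adults, ranked 3945 and 9029 in adults and 3583 to 5120 at P6. In the endothelial lists the peak there ranked 29472 in adult replicate 1 and 23850 and 21318 at P6. Brain, heart and retina had a top peak there in at least 2 endothelial libraries at P6, but not in adults. Smooth muscle and pericyte genes had input-only regions in 3 of 16 cases in adults (18.8%) and 8 at P6 (50.0%), and endothelial-only regions in 1 (6.25%, under the share of all genes) and 5 (31.2%). Tbx5, a T-box factor gene of lung mesenchyme, had 2 top peaks in each of the 5 input libraries and none in the 4 endothelial libraries. Cnn1, a contractile protein gene, and Myocd, a smooth muscle co-activator gene, also had input-only regions of both ages. Myh11, of the same list, went the other way, with an endothelial-only region at each age. It had 2 and 2 against 1 and 1 top peaks in adults, and 3 and 3 against 1, 1 and 1 at P6. At P6, endothelial-only regions also fell at Cspg4, Rgs5, Kcnj8 and Trpc6. The Acta2 promoter, printed above, had a top peak in P6 input replicates 1 and 2, at ranks 8155 and 7115. In P6 input replicate 3 the peak there ranked 22177, and in the P6 endothelial lists 38084 and 48129. Mesothelial genes had an input-only region at 1 of 8 genes at each age, at Upk1b. Macrophage genes had them at 2 and 3 of 16, with the same region of Cebpb at both ages and different regions of Ptprc. Lymphocyte genes had them at 0 and 1 of 16, neural and glial genes at 1 and 2 of 8, Erbb3 at both ages, and erythroid genes at 0 and 1 of 8. Endothelial-only regions fell at 2 macrophage genes in adults (Mrc1 and Irf8) and 1 at P6 (Csf1r), and at 1 lymphocyte gene at each age (Tcf7 and Gata3). They also fell at 1 neural or glial gene at each age (Sox10 and Snap25), at 0 and 1 mesothelial genes (Wt1) and at 0 erythroid genes. Neutrophil genes had no called region on either side. At the Cebpb region, adult endothelial replicate 1 had a peak at rank 20815, and the P6 endothelial lists at 27248 and 32253. Brain, heart, kidney and liver had a top peak there in at least 2 endothelial libraries in adults, and heart and liver at P6. Without adult input replicate 1, adult input-only genes numbered 6 (fibroblast), 5 (smooth muscle and pericyte), 5 (macrophage), 2 (lymphocyte), 2 (neural and glial) and 1 (neutrophil), and 2 lymphocyte genes had an endothelial-only region. The share of all genes in that setting was not computed. By the main rule, shares of the macrophage list (12.5% and 18.8%) and of the lymphocyte list (0% and 6.25%) were near or under the 9.17% and 16.9% of all genes with an input-only region. Mesothelial shares were 12.5% at each age, neural and glial ones 12.5% and 25.0%, and erythroid ones 0% and 12.5%. Endothelial-only shares were 12.5% and 6.25% (macrophage), 6.25% at each age (lymphocyte) and 12.5% at each age (neural and glial). They were 0% and 12.5% for mesothelial genes, and 8.22% and 11.8% for all genes.

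Over the 280 genes of all 22 lists, 39 had the same endothelial-only region at both ages and 34 the same input-only region. The share of all genes with such a region was not computed. These counts, and those given above for single lists, can thus not be read against a general level. Both an endothelial-only and an input-only region that kept its side at both ages fell at 8 genes, at different distances from the start. They were Clic5, Erg, Hopx, Lpcat1, Mecom, Rasip1, Scd1 and Vegfa. Other list genes, such as Elk3 and Nrp1, had regions of both kinds at each age without meeting this rule. Hopx, a homeobox gene of alveolar type 1 cells, had an input-only region 39.6 kb outside the gene at chr5:77154770-77155392 in adults, which was among the 10 best-ranked input-only regions of adults. It ranked 3251 and 1531 in the adult input lists and 4110, 4014 and 6135 at P6. An endothelial-only region lay inside Hopx, 4.48 kb from the start, and ranked 8471 and 11941 in adults and 5494 and 8877 at P6. The gene had 3 and 3 top peaks in adult endothelial and 5 and 5 in adult input libraries, and 2 and 2 against 5, 7 and 3 at P6. Erg had 3 endothelial-only regions within 10.2 kb of its start and an input-only region whose centre lay 127 kb downstream of it. Mecom, a zinc-finger factor gene listed as endothelial, had endothelial-only regions at 31.6 and 36.4 kb and input-only regions at 59.7 kb downstream and 122 kb upstream. It had 5 and 4 against 8 and 9 top peaks in adults, against the order of its list, and 7 and 6 against 7, 6 and 9 at P6. Rasip1, a gene of vascular lumen formation, had an endothelial-only region at its start and another inside the gene, 7.61 kb from the start, and an input-only region 11.1 kb from it. In 2 of 5 alternative settings Rasip1 had an input-only region at both ages. Vegfa, which epithelium makes as a signal to vessels, had an endothelial-only region within the gene and an input-only region 36.8 kb from its start. Clic5, an alveolar type 1 gene, and Lpcat1, an alveolar type 2 phospholipid gene, each carried both kinds as well. A list gene could therefore stand on either side depending on the region.

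**Figure D3:**
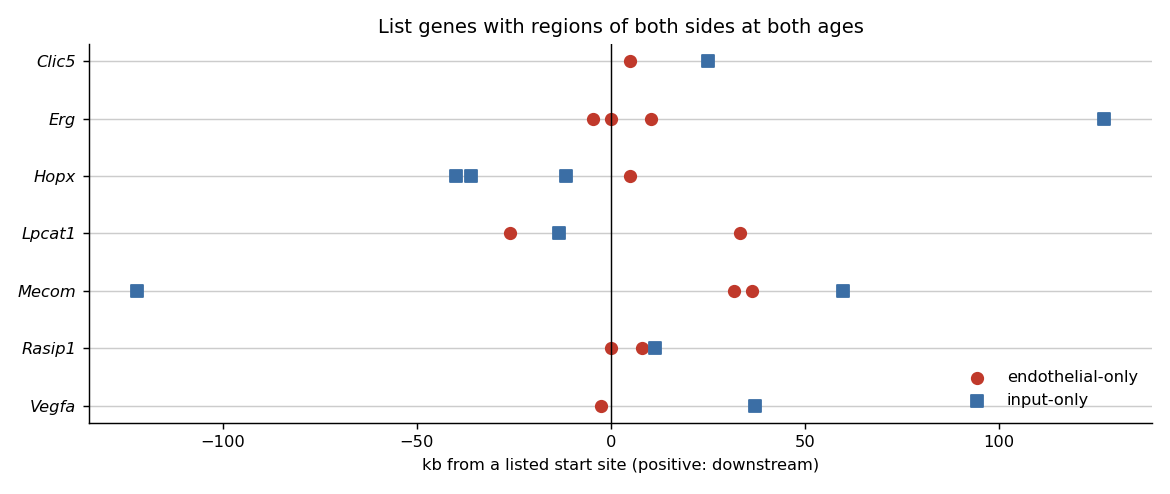
Position of the centre of each region called on the same side at both ages (horizontal axis, kb from a listed start site, positive downstream, adult coordinates). Drawn are 7 of the 8 list genes with such regions of both kinds. Scd1 has no listed start site and is not drawn. Endothelial-only regions (circles) and input-only regions (squares) of a gene lie at different places, for example 4.93 and −40.0 kb for Hopx.

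Without regard to the lists, the best-ranked adult endothelial-only regions included those nearest to Clec12b, Cd47, Lingo2, Sox17, Phlpp1, Usp25, Ppp1r12c, Zeb2 and Esam. At P6 they included those nearest to Ackr2, Rgl1, Rnf144b, Denn2b, Usp29, Eif2d, Kifc3, Vwa8 and Arrb1. The first of these overlapped the start of Ackr2, a chemokine-scavenging receptor gene of lymphatic endothelium, at chr9:121898142-121898720, with fold enrichments of 6.44 and 6.53. The adult regions nearest to Zeb2 and Esam and the P6 regions nearest to Denn2b, Eif2d, Kifc3 and Arrb1 were endothelial-only at the other age too. The others named here were not. Nearest genes are named by position and need not be the targets of a region. The best adult input-only regions lay nearest to Rab11fip4, Fut10, Commd2, Slc25a33, Dusp16, Kcne2, Cystm1, Gm46608, Hopx and Zdhhc18, and all 10 were also input-only at P6. At P6 the best lay nearest to Hmga2, Slc10a6, Plekhm3, Nr2f1, Syt3, Dcdc5, Dusp16, Lrrc74b, Rnd3 and Chgb. The first of these lay inside Hmga2, a chromatin protein gene of growing tissue, at chr10:120421895-120422491, with fold enrichments of 8.36, 7.82 and 8.54. Dusp16, a MAP kinase phosphatase gene, was on the list of both ages. Of the P6 input-only regions named, those nearest to Slc10a6, Plekhm3 and Dusp16 were input-only in adults too. Some had top peaks in at least 2 endothelial libraries of other organs. These were Syt3 (5 organs), Chgb (4), Hmga2 (2), Plekhm3 and Lrrc74b (1 each), and the others named had none. The Syt3 region ranked 26206 and 19495 in the P6 lung endothelial lists, the latter just outside the top peaks.

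Genes with the most adult endothelial-only regions were Prkce, a protein kinase C gene, with 7, and Flt1, Nfib, Ppp1r16b and Rapgef5 with 6 each. Adgrf5, Bach2, Csgalnact1, Cubn and Ece1 had 5 each. At P6, Apbb2, Bach2 and the forkhead factor gene Foxp1 had 9 each, Arhgap26, Stard13 and Zmiz1 had 8, and Cemip2, Frmd4a, Sema6d and Sgms1 had 7. Ece1 encodes endothelin-converting enzyme, and it had no endothelial-only region at P6. Bach2, a transcription factor gene, was named on the endothelial side at both ages. On the input side of adults, Adamtsl1, Arid1b, Itga9, Lpp, Macrod2, Mbp, Myh14, Nav2, Nmnat2 and Syn3 had 5 each. At P6, Macrod2, Ptprn2, Robo1 and Shroom3 had 8, Agbl4 and Tenm2 had 7, and Abtb2, Car10, Ccser1 and Cped1 had 6. Genes of both sides differed in length, and a long gene can collect more regions. On the input side Macrod2 had 1998 kb, Agbl4 1267 kb and Myh14 65.1 kb. On the endothelial side Arhgap26 had 775 kb, Foxp1 597 kb and Adgrf5 99.2 kb. Genes with equal numbers were ordered alphabetically, so further genes tied with the last of each group. Some of these genes also had regions of the other side at the same age. At P6, Arhgap26 and Stard13 had 5 input-only regions each and Frmd4a had 4. In adults, Syn3 had 4 endothelial-only regions. Bach2 had 2 input-only regions at each age, and the other genes named had 0 to 2 of the other side.

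Regions of an age were more frequent on their own side in the libraries of the other age, which had no part in choosing them. Of the adult endothelial-only regions, 74.3% ± 0.238 (SD, n = 2) had a top peak in a P6 endothelial library and 23.7% ± 0.797 (SD, n = 3) in a P6 input library. The difference of 50.6 percentage points had an exact two-sided permutation p of 0.10, the smallest that 2 against 3 libraries allow. Of the adult input-only regions, 5.79% ± 0.438 had a top peak in P6 endothelial libraries and 61.8% ± 2.66 in P6 input libraries, again with an exact permutation p of 0.10. P6 endothelial-only regions had a top peak in 42.2% ± 1.42 of cases in adult endothelial and 6.32% ± 0.415 in adult input libraries (n = 2 and 2, exact permutation p 0.333, the smallest possible). For P6 input-only regions the shares were 10.8% ± 3.85 and 48.2% ± 7.26 (exact permutation p 0.333). In all 4 cases the libraries of the 2 sides did not overlap, but the design cannot reach 0.05.

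Called by the same rule at the other age, 1062 of the 2965 adult endothelial-only regions (35.8%, 95% Wilson interval 34.1 to 37.6) were endothelial-only at P6 too. A further 1027 (34.6%) had top peaks on both sides at P6, and 499 (16.8%) had none. Of the 4597 P6 endothelial-only regions, 1056 (23.0%) were endothelial-only in adults and 2079 (45.2%) had no top peak in any adult lung library. On the input side, 1643 regions were shared, which is 56.6% of the adult and 25.6% of the P6 set. The endothelial share of 35.8% fell to 3.74% when the shortest list of each age set the number of top peaks, and to 19.1% when peaks were ranked by fold enrichment. The input share was 47.6% and 53.7% in those settings, and 32.2% without adult input replicate 2. The share of all regions of an age with each of these states at the other age was not computed. These shares can thus not be read against a general level. Few regions changed side. Regions endothelial-only in adults and input-only at P6 numbered 26 (0.877% of the adult set), and the reverse 3 (0.103%). The best-ranked of the 26 was at the start of Tmeff2, a transmembrane protein gene, and the next was 12019 bp outside Aplnr. Others overlapped the starts of Elk3, Usp46 and Vangl1 or lay inside Flt1, 80382 bp from its start. The reverse 3 lay at Lats2, a Hippo pathway kinase gene, Tex26 and Tdrd7.

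**Figure D4:**
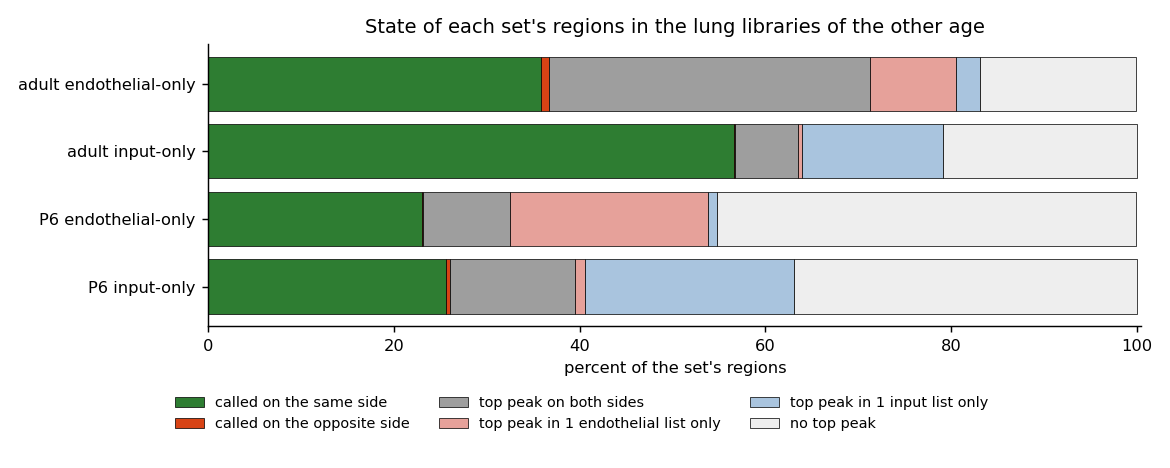
Share of each set's regions (horizontal axis, percent) by their state in the lung libraries of the other age, with a bar for each of the 4 sets. Of the adult endothelial-only regions 35.8% kept their side and 34.6% had top peaks on both sides, while 45.2% of the P6 endothelial-only regions had no top peak in adult lung.

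Endothelium of other organs shared many of the lung endothelial-only regions. The regions were looked up in the top peaks of brain, heart, kidney, liver and retina libraries of the same age, of which 10 were endothelial and 8 input in adults, and 12 and 13 at P6. On average over the 5 organs, 33.2% ± 16 (SD over organs) of the adult endothelial-only regions had a top peak in endothelial and 7.75% ± 2.70 in input libraries. The difference of 25.5 percentage points was positive in 5 of 5 organs. It was 16.5 points without adult endothelial replicate 1, when the remaining endothelial library counted alone. Its exact two-sided permutation p, with labels exchanged within organs, was 0.000514, the smallest of 1944 relabellings, or 0.00103 after Benjamini-Hochberg adjustment over 4 tests. For P6 the shares were 27.8% ± 12.9 and 2.97% ± 0.633, positive in 5 of 5 organs. The exact permutation p was 6.94e-06, the smallest possible, and 2.78e-05 adjusted. In adults heart (46.6%), kidney (45.6%) and liver (40.9%) endothelium held more of the regions than brain (22.2%) and retina (10.7%) endothelium. P6 had the same order of means, with 40.3% in heart, 37.2% in kidney, 32.6% in liver, 19.2% in brain and 9.71% in retina. The brain libraries at P6 ranged from 9.09% to 25.5% and reached into the retinal range of 9.09% to 10.9%. Without brain endothelial replicate 2, which had the 9.09% and was chosen for this after seeing the data, the P6 difference was 25.8 points. The order of organs was not tested.

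Lung input-only regions were less frequent in other organs' endothelium, but not in each organ. Of the adult set, 9.96% ± 4.64 had a top peak in endothelial and 16.5% ± 4.71 in input libraries, a difference of −6.54 points (exact permutation p 0.0170, 0.0170 adjusted). Endothelium was above input in 2 of 5 organs, brain and retina. For P6 the shares were 13.6% ± 4.41 and 20.6% ± 3.90, a difference of −6.98 points (exact permutation p 0.00268, 0.00357 adjusted), with endothelium above in 1 of 5. In adult heart the endothelial share was 6.98% and the input share 22.7%, in liver 4.86% and 17.2%, and in kidney 10.3% and 18.6%. In adult brain it was 17.1% against 13.7%, with a single input library, and in retina 10.6% against 10.3%, where the libraries overlapped. The adult call was lost without adult endothelial replicate 1 (−4.69, adjusted exact permutation p 0.0869), and without adult input replicate 2 the difference was −3.95 points (0.0267). It was also lost without heart (−4.25, adjusted p 0.0957), kidney (−6.09, 0.0556) or liver (−5.08, 0.102) in the exact permutation test. With replicate numbers as a block, neither input-only difference was called, at −6.47 points in adults and −6.46 at P6 (adjusted exact permutation p 0.0859 for each).

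**Figure D5:**
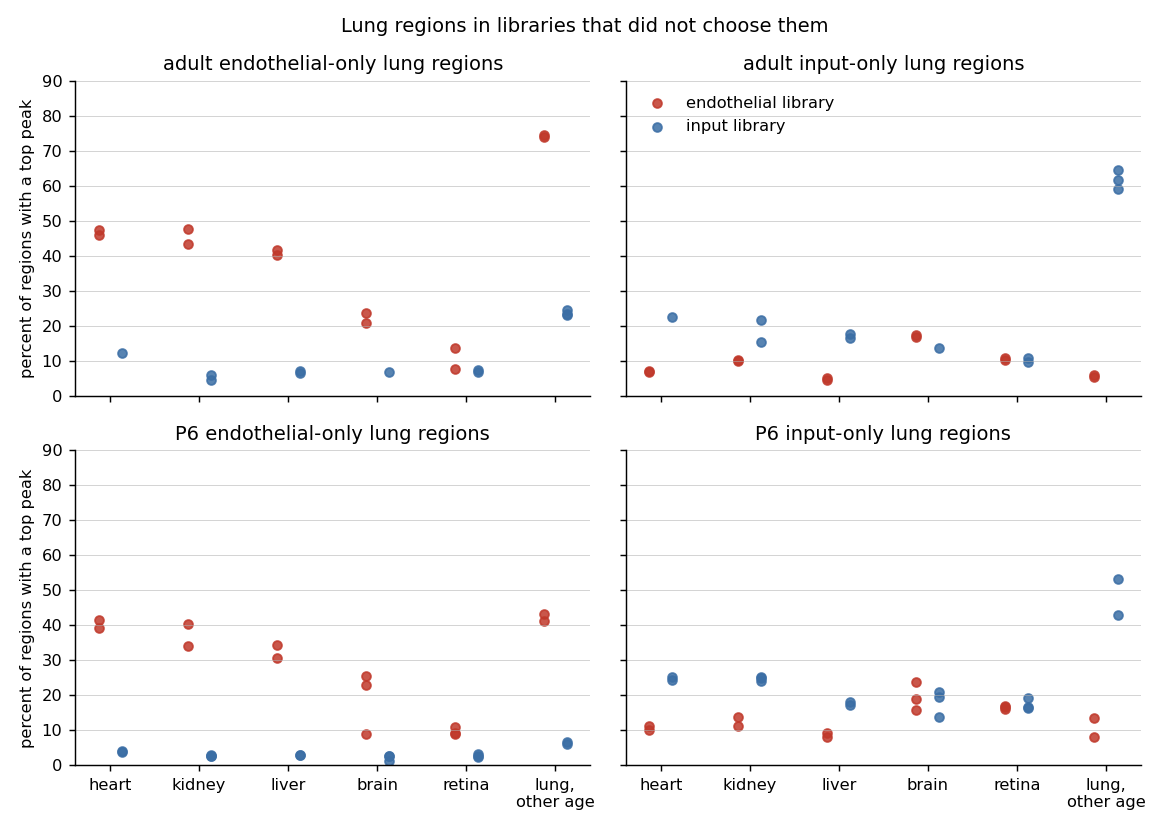
Share of lung regions with a top peak (vertical axis, percent) in each library of 5 other organs and of lung at the other age, for the 4 sets. Endothelial libraries lie above input libraries in each column for the endothelial-only sets, and the gap is widest in heart, kidney, liver and other-age lung.

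Of the adult endothelial-only regions, 724 (24.4%) had no top peak in any endothelial library of the 5 other organs, and 1403 (30.5%) of the P6 set had none. Of the input-only regions, 1982 (68.3%) in adults and 4041 (62.9%) at P6 had none. The share over all lung regions was not computed. Endothelial-only regions found in endothelium of all 5 other organs, by the rule of at least 2 libraries, numbered 17 (0.573%) in adults and 133 (2.89%) at P6. The adult region at Flt4, called in lung at both ages, was among the 17, and so was the start of Jam2, a junctional adhesion gene. At P6 the start of Ackr2 and a region in Col4a1, a basement membrane collagen gene, were among the 133. At the other extreme, the best-ranked adult regions without a top peak in other endothelium lay 127028 bp from Zeb2, a zinc-finger factor gene, inside Mettl15, Mbd2 and Pam, and 278794 bp from Cxcl12, an arterial chemokine gene. At P6 they lay in Rgl1, Denn2b, Eif2d and Arrb1 and 232084 bp from Rnf144b. By list, 4 of 9 adult regions at arterial genes and 3 of 10 at general capillary genes had no top peak in other endothelium, against 2 of 27 at general endothelial genes. At P6 the counts were 2 of 7, 3 of 4 and 3 of 31. The other lists had 1 of 7 (aerocyte), 1 of 9 (venous), 0 of 3 (lymphatic) and 3 of 24 (transcription factors) in adults, and 3 of 12, 0 of 5, 0 of 3 and 4 of 30 at P6. These counts are descriptions of small lists.

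Weaker peaks of the other side lay under most endothelial-only regions when the full deposited lists were searched. In adults, 39.1% of them overlapped a peak in input replicate 1, whose list held 34327 peaks, and 96.8% one in input replicate 2, with 78793 peaks. At P6 the shares were 94.7% to 99.4% in the 3 input lists of 91318 to 112753 peaks. No peak at all was present in the input lists at 88 adult regions (2.97%, 95% Wilson interval 2.42 to 3.64) and 6 P6 regions (0.131%, 0.0598 to 0.284). Input-only regions had weaker peaks in the endothelial lists less often. In adults 30.5% overlapped one in endothelial replicate 1, and none could in replicate 2, whose whole list was used. At P6 the shares were 59.3% and 55.3%, and 36.9% had no endothelial peak. These shares move with the length of the list searched, so the sides cannot be compared by them.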

How the data were processed

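ATAC-seq peak lists of 9 mouse lung libraries were used, and 43 lists of 5 other organs served as libraries that had not chosen the regions. MACS2 2.1.2 was run by the authors on single libraries, per the file headers. It ran in single-end, broad mode without a control and kept at most 1 tag per position. Tags were moved by −100 bp and extended to 200 bp, and q-value limits were 0.05 and 0.1. Per the submitters' processing notes, reads were aligned to mm10 with Bowtie2 and handled with SAMtools 1.13 and Picard. The deposited values per peak are −log10 p-values, −log10 q-values and a fold enrichment ratio over local background. Peaks were called in each library separately and list lengths differed, so equal numbers of top peaks were compared. Lung libraries had 23642723 to 45389810 tags kept, and no interval for a single peak can be had from the lists.

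Peaks on chromosomes 1 to 19, X and Y were ranked by −log10 q-value (ties by p-value, fold and position), and an overlap of 1 bp counted as shared. Regions were assigned to the nearest of 21887 RefSeq protein-coding genes within 50 kb. Start sites came from the promoter table for 17492 genes, and gene ends were used for the others. All 301 entries of 22 gene lists (280 genes) matched by symbol. The members, gene lists and motifs were chosen with earlier results of these data known. Named were, for each age and side, the 10 best-ranked regions and the 10 genes with the most regions, and up to 6 genes per list with a region on the same side at both ages or on the side opposite to the list. Some items that the rule names are not reported here. Genes outside this rule (such as Kdr, Pecam1, Sox17, Aplnr, Kit, Gja5, Prox1, Sftpc, Hba-a1 and Nkx2-1) were chosen after their values were seen. Sequences followed the same order, up to 4 promoters a side. Shares of regions were compared over libraries that had not chosen them, by exact two-sided permutation, within organs for the 5 organs, with Benjamini-Hochberg adjustment over 4 tests. Region counts and lists have no test because the rule chose them. Shares have 95% Wilson intervals.

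Alternatives were 10000 top peaks, ranking by fold, 50% overlap, the shortest list of each age, all deposited peaks, absence from the full lists, each library or organ left out, the replicate block, and gene assignment by start site or within 20 kb. Scripts in Python 3.11.15 with numpy 2.4.6, scipy 1.17.1 and matplotlib 3.10.9 were tested on simulated peak lists. RNA tables, the embryonic libraries and single-cell data of the series were not used here, and with no mm10 genome, sequences of regions away from listed promoters were not analysed here.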

Additional observations from a re-analysis of the deposited data

Results flagged for a closer look

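For the adult input-only lung regions, the difference between endothelial and input libraries pointed one way in brain and the other way in 3 further organs. The endothelial share minus the input share was 3.41 percentage points in brain, with both endothelial libraries above the single input library. It was −15.7 points in heart, −8.32 in kidney and −12.4 in liver, with each endothelial library below each input library. Brain and heart had 1 adult input library each. The difference between organs was not tested.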

How the results depend on the processing

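Of 180 recomputed values of the main results, 131 kept their direction and size or call, 43 moved, 6 lost their call and 0 reversed. These values include the lung comparisons with libraries of the other age, which have too few libraries to be called in any setting. They count as kept unless their sign turned, so the 131 were partly fixed in advance. With 10000 top peaks there were 1068 adult endothelial-only, 942 adult input-only, 2330 P6 endothelial-only and 3017 P6 input-only regions, and 48.2% of the adult input-only regions were input-only at P6. With peaks ranked by fold, the shares of adult regions on the same side at P6 were 19.1% (endothelial) and 53.7% (input). With the shortest list of each age there were 13253 P6 endothelial-only and 20496 P6 input-only regions, and the shares were 3.74% and 47.6%. With all deposited peaks there were 266 adult endothelial-only, 11726 adult input-only and 48516 P6 input-only regions, and the shares were 2.26% and 52.5%. Requiring absence from the full lists of the other side left 88 adult endothelial-only, 6 P6 endothelial-only and 2373 P6 input-only regions, with shares of 0% and 37.5%. Some counts rose with longer lists, but the adult endothelial-only count of 266 lay under the 2965 of the main rule. With all deposited peaks the adult input lists held 34327 and 78793 peaks and the adult endothelial lists 30974 and 19464. Why the counts and shares moved was not tested.

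Leaving out each lung library in turn gave 3820 to 6269 adult endothelial-only, 3118 to 6568 adult input-only, 4915 to 6090 P6 endothelial-only and 3385 to 7088 P6 input-only regions. Where 1 of 2 libraries of a side is left out, the remaining one counts alone, and absence from that side is easier to meet. These counts, and the shares and differences drawn from them, thus follow a changed rule as well as fewer libraries. The shares on the same side at both ages ranged from 24.6% to 40.9% (endothelial) and from 32.2% to 58.0% (input), the lowest without adult endothelial replicate 1 and without adult input replicate 2. In other organs the adult endothelial-only difference ranged from 16.5 points (without adult endothelial replicate 1) to 25.8, and the P6 one from 22.5 to 25.8. The adult input-only difference ranged from −5.91 to −3.95 points and was not called without adult endothelial replicate 1 (−4.69). The P6 one ranged from −8.52 to −6.24. Without heart, kidney or liver the adult input-only difference was −4.25, −6.09 and −5.08. With the replicate block it was −6.47 and the P6 one −6.46 (adjusted exact permutation p 0.0859 for each), neither called, while the endothelial-only differences of 25.3 and 23.6 kept their call. Replicate numbers did not pair the samples by the rule that every pair must correlate above 0.1. Deviations of same-numbered libraries correlated at −0.056 in adult lung and 0.008 and 0.011 in P6 lung. In the organs with 3 numbers on both sides at P6 they correlated at −0.046 to 0.099 (brain) and −0.008 to 0.022 (retina). With 2 libraries on each side the values are mirror images by centring. Of 484 gene list values 375 stayed within 1.5 times and 109 moved, and of 42 start-site shares 28 moved. More genes were endothelial-only than input-only in 5 to 7 of the 7 endothelial lists in adults and in 4 to 7 at P6. With peaks ranked by fold, 2 of them had more input-only genes at P6. Of the 12 lists of other cells, 2 had more endothelial-only and 6 more input-only genes in adults, and 1 and 8 at P6. With 10000 top peaks these were 5 and 4 in adults and 4 and 5 at P6, and with peaks ranked by fold 3 and 6, and 0 and 10. Without adult input replicate 1, a setting for lists chosen after seeing the data, the adult counts were 1 and 9, and 7 of the 7 endothelial lists had more endothelial-only genes. Of 54 list genes with an endothelial-only region at both ages, 7 had one in each of the 5 alternatives for lists at both ages, 19 in 4, 25 in 3 and 3 (Foxo1, Sox17 and Tbx3) in 2. Of 36 such input-only genes, the numbers were 3, 12, 19 and 2 (Elk3 and Rasip1). The shortest list, used whole, limits what can be seen as absent on the endothelial side of adults.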

Other observations

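Some endothelial-only regions of both ages lay near genes that the lists give to other cell types. A region inside St14, an epithelial serine protease gene, ranked 9437 and 17017 in the adult endothelial lists and 9653 and 10914 at P6. In the input lists it ranked 19518 in adult replicate 2 and 19941 to 72291 at P6, and adult input replicate 1 had no peak there. A region 0.490 kb outside Scd1, a fatty acid desaturase gene of alveolar type 2 cells, ranked 7648 and 10351 in adults and 10690 and 9869 at P6, while an input-only region lay 14.3 kb outside the gene. Regions 6.52 kb outside Ltf, the lactoferrin gene, and 2.01 kb outside Inmt, a methyltransferase gene of lung fibroblasts, were endothelial-only at both ages too. The nearest gene is assigned by position, and the neighbouring genes were not tested.

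Input-only regions of both ages lay near genes of the endothelial lists in the same way. One lay inside Slc6a2, the noradrenaline transporter gene, 16.8 kb from the start, and ranked 19285 and 18880 in the adult input lists and 15307 and 15151 in P6 input replicates 1 and 2. Another lay inside Pdpn, 20.7 kb from the start. Pdpn encodes podoplanin, which both lymphatic endothelium and alveolar type 1 cells express, and it stands on both lists. It had no top peak in any of the 4 endothelial libraries, 1 in each adult input library, and 2, 1 and 0 in the P6 input libraries.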
